A study of Mus musculus with 6 samples.

Results

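The comparison set 4 mouse iPS cell lines against 1 mouse ES cell line across all genes of an expression array. The iPS arrays held lines #4 and #7 (FAH-/--iPS cells) and lines #7.1 and #7.2 (FAHgc-iPS cells, in which Fah was supplied by a vector). The reference was OG2 ES cells, with 1 array per culture, so that 5 of the 6 arrays of the series entered the comparison. The sixth array held FAH-/- MEFs (fibroblasts) and is used only for context. Lines #4 and #7 were picked as separate colonies from fetal fibroblasts of C57BL/6 FAH-/- mice that had been transduced with retroviral vectors for Oct4, Sox2, Klf4 and c-Myc. Lines #7.1 and #7.2 are subclones of line #7 that carry a lentiviral vector with a FAH cDNA and EGFP under the viral SFFV promoter, so 3 of the 4 lines share 1 derivation. All 4 lines come from FAH-/- fibroblasts and carry the 4 retroviral factors. The OG2 ES cells carry an Oct4-GFP reporter, and their mouse strain, passage at RNA isolation and sex are not given in the sources used here. Cell type, genetic background, vectors and culture history differed together between the lines and the ES cells and cannot be told apart with 1 ES cell array. Of 16578 genes on the array outside the Y chromosome, 10076 had at least 1 probe above background on at least 1 of the 5 arrays and were tested.

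ES cells come from the inner cell mass of the blastocyst and are kept undifferentiated by leukemia inhibitory factor (LIF), which acts through gp130 and STAT3 on a network built around Oct4, Sox2 and Nanog. Forced expression of a few transcription factors turns fibroblasts into iPS cells, in which the endogenous network takes over while the viral copies are usually silenced. Mouse ES and iPS cells are both grown as colonies on fibroblast feeder cells, so a little fibroblast RNA can be present in either. Fah, the last enzyme of tyrosine breakdown, is active mainly in liver and is the gene disrupted in the mice that gave the iPS cells.

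The signals are given as log2 of the normalized array signal, so that a difference of 1 is 2-fold. Between 45.8% (ES cells) and 47.7% (line #7.2) of the 25697 probes were above background on the 5 arrays. All 10 pluripotency markers were above background in the ES cells and in the lines, with a summed signal of 25030 in the ES cells, 21459 to 23868 in the lines and 698 in the MEFs. Of 11 fibroblast markers, 9 were above background in the ES cells and in at least 1 line, and Col1a2 and Postn in neither. The linear correlation with the ES cells over all probes was 0.987 for line #4, 0.981 for line #7, 0.986 for line #7.1 and 0.982 for line #7.2.

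The iPS lines and the ES cells differed in a small number of genes, some of them by a wide margin. Olig1, which directs oligodendrocyte formation, the tRNA-binding protein Thumpd1 and Trim59, a member of the tripartite motif family, were above background in all 4 lines and not in the ES cells. The pluripotency factor Zfp42 (Rex1) and the homeobox gene Gbx2 were also higher in the lines. The Gbx2 call was lost under many of the other settings tried. The mitotic kinase Plk1, the proteasome subunit Psmd8, the X-linked homeobox genes Rhox6 and Rhox9 and Fah itself were lower. In a limma fit across all genes, with calls at an adjusted p under 0.05 (Benjamini-Hochberg) and at least a 2-fold difference, 92 genes were called (0.913% of those tested). Of these, 40 were higher in the lines (0.397%) and 52 lower (0.516%). Of the 40, 11 were at least 4-fold higher, and of the 52, 11 were at least 4-fold lower. With each array scaled to 1 median in place of quantile normalization, 60 genes were called higher and 41 lower, so the balance between the directions depends on the scaling, which moved the median gene from 0.01 to 0.08. The median difference over all genes was 0.01 here. All 4 lines lay above the ES cells in 2938 genes (29.2%) and below them in 2710 (26.9%), so a gene on one side in all 4 lines is common. The ES array had no replicate and was taken to vary like the lines, so that all p-values rest on the spread between the 4 lines alone, most of which share a derivation.

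**Figure D1:**
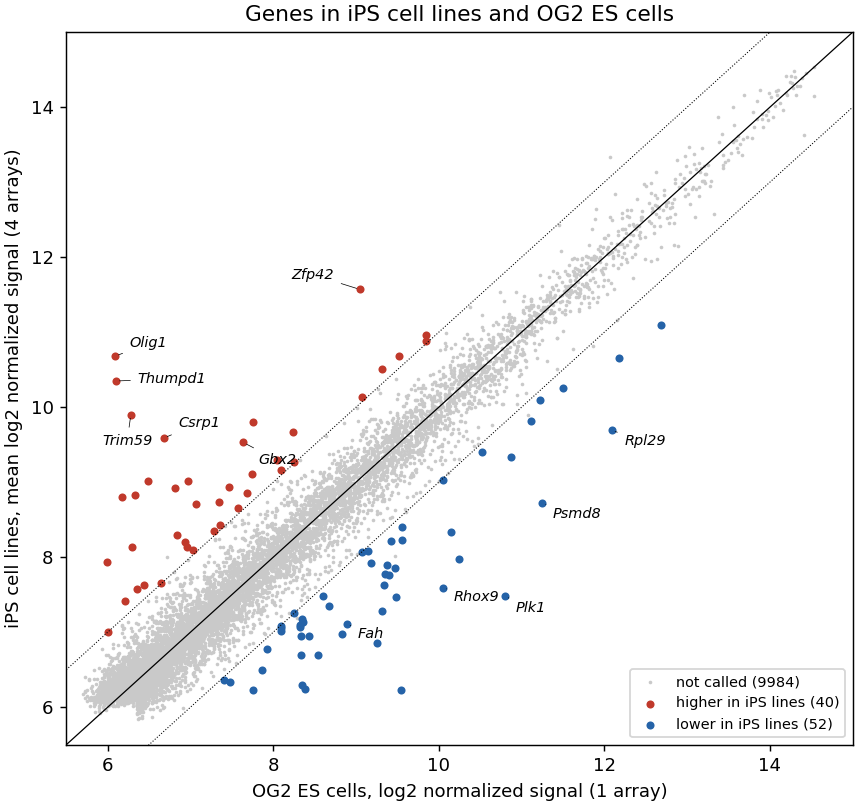
Each point is 1 of 10076 genes, with its log2 normalized signal in OG2 ES cells (1 array) on the x axis and its mean over the 4 iPS cell lines on the y axis. Solid line, equal signal, and dotted lines, 2-fold. Red points were called higher in the lines (40 genes) and blue points lower (52 genes), and the remaining genes lie close to the line of equal signal.

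Zfp42 (Rex1), a zinc finger protein that marks naive pluripotent cells, had a signal of 9.05 in the ES cells, against 11.82, 11.46, 11.48 and 11.54 in lines #4, #7, #7.1 and #7.2. All 4 lines were well above the ES cells, which were themselves above the MEFs (6.33). The difference was 2.53 (SE 0.16, limma adjusted p = 2.8e-05), or 5.76-fold, on its single probe. The Zfp42 promoter is shown because Oct4 binds the octamer, a motif with the letters ATTTGCAT, while Oct4 (Pou5f1) itself was not called. In the 300 bases around the Zfp42 start (RefSeq, GRCm38.p6, chr8:43306960-43307259, minus strand, 250 bases before and 50 after the start), capitals mark the 1 octamer found in a search of both strands.
Zfp42 promoter: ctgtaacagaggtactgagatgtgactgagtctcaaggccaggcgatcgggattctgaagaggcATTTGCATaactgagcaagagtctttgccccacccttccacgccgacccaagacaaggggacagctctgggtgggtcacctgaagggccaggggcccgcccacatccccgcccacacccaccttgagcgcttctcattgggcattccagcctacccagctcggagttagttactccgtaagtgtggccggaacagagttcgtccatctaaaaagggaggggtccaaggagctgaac
The octamer stands in 1.74% of 32851 promoter windows of this length. The match describes the letters and not a bound site.

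No other member of the pluripotency list was called higher. Tcl1, a coactivator of Akt kinase that is abundant in ES cells, was lower in the lines. Its signal was 9.14 in the ES cells and 8.25, 8.04, 8.07 and 7.97 in lines #4, #7, #7.1 and #7.2. The difference was −1.05 (SE 0.14, limma adjusted p = 0.0042), just over 2-fold, and its 2 probes gave −1.13 and −0.98. It fell under 2-fold and was not called without background correction (−0.96), with median scaling (−0.89), with lines #4 and #7 alone (−0.99) or with the line #7 derivation averaged into 1 unit beside line #4 (limma adjusted p = 0.028). Of 32 tested members of the list, Zfp42 was called higher and Tcl1 lower. All 4 lines lay below the ES cells in 19 members and above them in 5, beside 26.9% and 29.2% of all genes tested. The median of the list was −0.26, beside 0.01 for all genes tested.

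Nanog, a homeobox protein of the core network, read 12.03 in the ES cells and 11.50, 11.40, 11.67 and 11.46 in lines #4, #7, #7.1 and #7.2. All lines were below the ES cells, but the difference of −0.52 (SE 0.14, limma adjusted p = 0.075) was not called. For the 4 factors that the retroviral vectors carry, the differences were −0.10 for Oct4 (Pou5f1), −0.02 for Sox2, −0.09 for Klf4 and 0.22 for Myc (limma adjusted p = 0.78, 0.95, 0.86 and 0.41), and none was called. Myc was not above background in the ES cells. The signs for Oct4, Sox2 and Klf4 turned with median scaling, and those for Sox2 and Klf4 also without line #4. In Oct4 the ES cells (12.11) lay within the lines, which ran from 11.89 to 12.23, and in Sox2 (8.95) likewise between 8.83 and 9.02. Whether the probes of these 4 genes also measure the vector copies is not known.

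Among genes of the LIF, gp130 and STAT3 pathway, the called members were both targets of STAT3. Gbx2, a homeobox gene that supports self-renewal of naive cells, read 7.64 in the ES cells, and 10.52, 9.17, 9.38 and 9.05 in lines #4, #7, #7.1 and #7.2. All lines were above the ES cells, line #4 by the widest margin, and the MEFs (6.21) were below background. The difference was 1.90 (SE 0.44, limma adjusted p = 0.048). This call was lost when line #7, #7.1 or #7.2 was left out (differences of 2.01, 1.95 and 2.06, limma adjusted p = 0.063, 0.087 and 0.077). The Gbx2 call was also lost without background correction, with a normexp offset of 16, and with the mean of all probes. Other filters, another variance model and the authors' values lost it too. So did lines #4 and #7 alone, and the line #7 derivation as 1 unit beside line #4. Socs3, the feedback inhibitor of the same pathway, read 9.85 in the ES cells and 10.79, 10.96, 10.86 and 10.93 in the lines. The 4 lines, 3 of them of 1 derivation, lay close together above the ES cells, by 1.03 (SE 0.13, limma adjusted p = 0.0029). The call was lost just under 2-fold when the processed values, raised by 50, replaced the exported ones (0.99) and with the line #7 derivation as 1 unit beside line #4 (limma adjusted p = 0.021), and on its p with lines #4 and #7 alone (1.02, limma adjusted p = 0.17). The receptor subunit Il6st (gp130), the kinase Jak1 and the transcription factor Stat3 were not called, with differences of −0.36, −0.10 and 0.53. Lifr, the other receptor subunit, was not above background in the ES cells and was above it in 1 line. These 4 genes are listed after their values were seen. Of 15 tested members, 2 were called higher and none lower, and the median was 0.03. The Socs3 promoter is printed for the STAT motif TTCNNNGAA, in capitals, which a search of its 300 bases found 1 time (RefSeq, GRCm38.p6, chr11:117969317-117969616, minus strand).
Socs3 promoter: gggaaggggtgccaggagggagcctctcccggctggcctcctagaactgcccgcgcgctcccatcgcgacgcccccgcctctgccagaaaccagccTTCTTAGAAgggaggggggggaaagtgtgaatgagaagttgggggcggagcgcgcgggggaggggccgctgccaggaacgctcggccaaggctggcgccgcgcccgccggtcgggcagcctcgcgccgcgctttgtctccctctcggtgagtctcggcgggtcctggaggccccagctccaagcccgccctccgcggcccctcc
This motif, which reads alike on both strands, stands in 8.30% of the promoter windows.

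Single members of other developmental pathways were higher in the lines. Sp5, a zinc finger factor and direct target of Wnt and beta-catenin signaling, read 6.93 in the ES cells and 7.84, 8.19, 8.37 and 8.40 in lines #4, #7, #7.1 and #7.2. The difference was 1.27 (SE 0.20, limma adjusted p = 0.01), the lines did not overlap the ES cells, and it was the 1 gene called among 22 of the Wnt list (median 0.11). Pou3f1 (Oct6), a POU factor of the primed epiblast and the neural lineage, read 8.25 in the ES cells and between 9.23 and 9.32 in the lines. It differed by 1.03 (SE 0.12, limma adjusted p = 0.0021) and was the 1 gene called among 20 primed epiblast and early lineage genes (median 0.09). Fgf8, a growth factor of the gastrulating embryo, showed 0.88 and Dnmt3b, a de novo DNA methyltransferase, 0.79, and neither was called (limma adjusted p = 0.15 and 0.039, the latter below 2-fold). Without line #4, which read 7.10 beside 6.84 in the ES cells, Fgf8 passed at 1.08 (limma adjusted p = 0.0037). That fit rests on line #7 and its own subclones alone.

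Olig1, Thumpd1 and Trim59 had the largest fitted differences, but the ES cells were not above background in any of them, so the differences have only lower bounds and no order among them. Olig1 is a basic helix-loop-helix factor known for oligodendrocyte development. Its signal was 6.09 in the ES cells, not above background, and 10.43, 10.53, 10.85 and 10.89 in lines #4, #7, #7.1 and #7.2, with 7.24 in the MEFs. The 4 lines stood together far above both other cell types, at least 20.02-fold above the ES cells (difference 4.59, SE 0.19, limma adjusted p = 1.8e-06). Its relative Olig2, a marker of the neural set, read 6.17 in the ES cells and 5.98 to 6.52 in the lines, above background in 1 line. Sox1 and Pax6, which define neural progenitors, were above background in neither the lines nor the ES cells. The summed signal of the 6 neural markers was 502 in the ES cells and 1858 to 2350 in the lines. Olig1 made this difference, since Nes read 7.29 in the ES cells and 7.30 to 7.59 in the lines, and Tubb3 6.31 and 6.05 to 6.43. The list of 12 tested neural genes held no called gene other than Olig1 (median 0.14). All 4 lines lay above the ES cells in 6 of them and below in none, beside 29.2% and 26.9% of all genes tested. Nefm, named after its values were seen, showed 0.66 (limma adjusted p = 0.048), below 2-fold, and was not above background in the ES cells.

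Thumpd1 binds tRNA as a partner of the acetyltransferase Nat10. It read 6.10 in the ES cells, not above background, and 10.49, 10.23, 10.43 and 10.24 in lines #4, #7, #7.1 and #7.2, with 8.84 in the MEFs. This amounted to at least 15.96-fold (difference 4.25, SE 0.15). Trim59 read 6.28 in the ES cells and 9.79 to 9.98 in the lines, at least 11.67-fold (3.62, SE 0.13), with 8.82 in the MEFs. Both genes were thus measured in every culture except the ES cells. None of the other 24 tested genes of tRNA modification and translation was called (median of the list 0.06).

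Csrp1, a LIM-domain protein of the actin cytoskeleton, read 6.68 in the ES cells, 9.33 to 9.79 in the lines and 11.16 in the MEFs (difference 2.91, SE 0.18). Abhd16a, a phosphatidylserine lipase, read 6.17 in the ES cells, below background, and 8.69 to 8.86 in the lines, which were at least 5.44-fold higher. In these genes the MEFs exceeded the lines as the lines exceeded the ES cells. Apoa2, an apolipoprotein of high-density lipoprotein, differed by 2.51 (SE 0.13) and had a like signal in ES cells (6.49) and MEFs (6.59). Cyb5r1, a cytochrome b5 reductase, read 7.76 in the ES cells and 9.79 to 9.80 in the lines, with 9.84 in the MEFs. It was the gene with the smallest spread between lines among the 15 largest (SD 0.01), and differed by 2.03 (SE 0.12).

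Of the remaining genes among the 15 with the largest higher calls, Wdr46, a nucleolar protein of ribosome assembly, differed by 2.50 and Rpp14, a subunit of RNase P, by 2.05. Calml4, a calmodulin-like protein, differed by 1.64. The ES cells were not above background for Myo1f, a class I myosin best known from leukocytes, or Stard3nl, a late endosomal membrane protein, which were at least 2.99-fold and 3.42-fold higher in the lines. The uncharacterized 1700071K01Rik differed by 2.11. All 4 lines were above the ES cells in each of these 15 genes, and all 15 had an adjusted p (limma) of 0.048 or less. Among the 40 genes called higher, the ES cells were not above background in 8, and in 7 of these the bound was at least 2-fold. Over all 10076 genes tested, the ES cells were not above background in 1847, a like share.

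**Figure D2:**
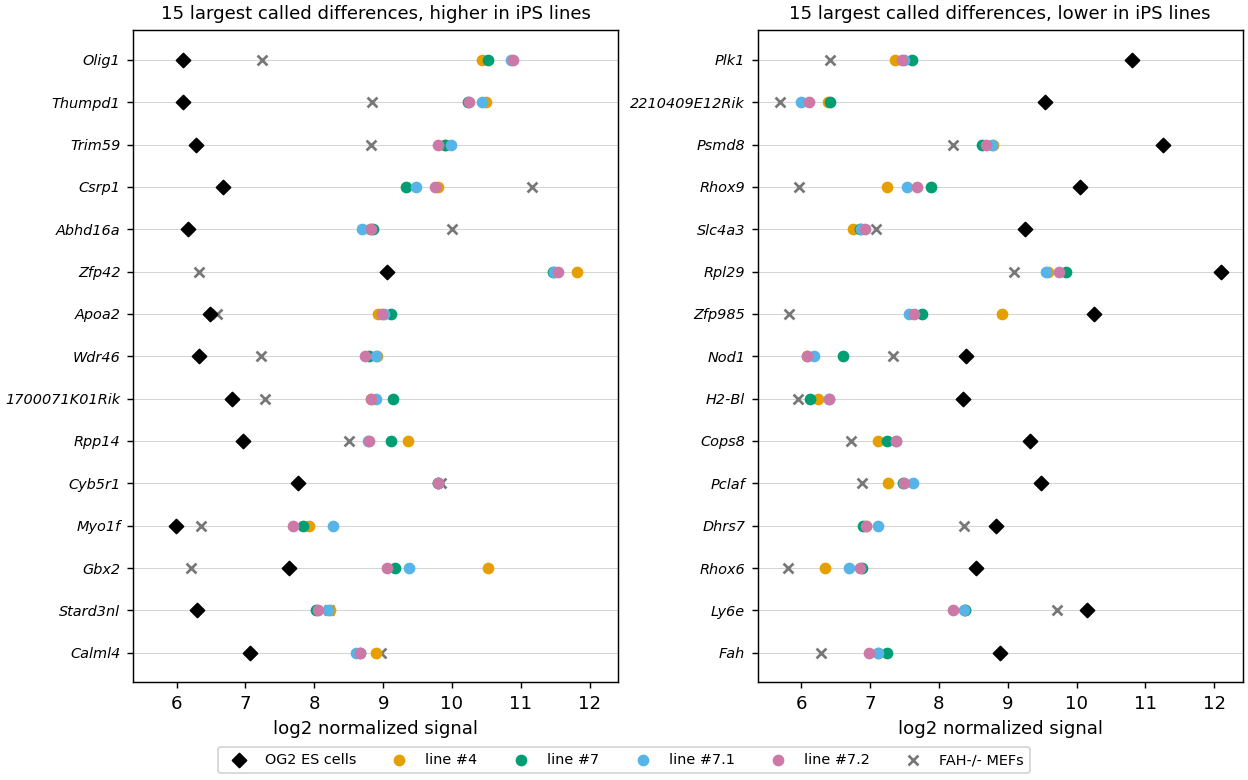
Log2 normalized signal (x axis) of the 15 called genes with the largest difference in each direction, with 1 symbol per array (black diamonds, OG2 ES cells, coloured circles, the 4 iPS lines, grey crosses, FAH-/- MEFs). The lines cluster away from the ES cells in each gene. Line #4 stands apart from the other lines in Gbx2 and Zfp985.

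Plk1, the kinase that drives entry into mitosis and spindle assembly, showed the largest difference in the other direction. Its signal was 10.80 in the ES cells and 7.36, 7.61, 7.50 and 7.46 in lines #4, #7, #7.1 and #7.2, with 6.42 in the MEFs. The lines lay together far below the ES cells, by −3.32 (SE 0.14, limma adjusted p = 1.8e-06), or 9.97-fold lower, on 1 probe. The rest of the mitosis list did not move with it. Of its 25 tested members no other was called, and the median was 0.15. All 4 lines were above the ES cells in 12 and below them in 4, beside 29.2% and 26.9% of all genes tested. Values of other members, listed after they were seen, were −0.01 for Cdk1, 0.33 for Aurka, 0.37 for Cdc20 and −0.24 for Cenpa. The Plk1 promoter is shown for the cell-cycle homology region (CHR), a motif of genes that peak in mitosis, searched as TTTGAA on both strands and capitalized where it was found (RefSeq, GRCm38.p6, chr7:122159185-122159484, plus strand).
Plk1 promoter: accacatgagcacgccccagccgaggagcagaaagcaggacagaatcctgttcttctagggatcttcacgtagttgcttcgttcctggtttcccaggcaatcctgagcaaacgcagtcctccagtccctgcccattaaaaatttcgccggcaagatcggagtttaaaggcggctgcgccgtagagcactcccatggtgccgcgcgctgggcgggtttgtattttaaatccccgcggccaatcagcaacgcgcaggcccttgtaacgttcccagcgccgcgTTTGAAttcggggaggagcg
This short motif stands in 17.89% of the promoter windows.

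The proteasome list held 1 call in each direction among 40 tested genes. Psmd8, a lid subunit of the regulatory particle, read 11.25 in the ES cells and 8.63 to 8.78 in the lines, with 8.20 in the MEFs (difference −2.54, SE 0.13, limma adjusted p = 8.0e-06). Psmb5, the catalytic subunit with chymotrypsin-like activity, read 9.31 in the ES cells and 10.57, 10.55, 10.59 and 10.32 in lines #4, #7, #7.1 and #7.2 (difference 1.20, SE 0.14, limma adjusted p = 0.0021). The lines lay below the ES cells in the former and above them in the latter. The median of the list was 0.02. Cops8, a subunit of the COP9 signalosome, whose subunits are related to those of the proteasome lid, differed by −2.04 (SE 0.14).

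The Rhox genes are a cluster of homeobox genes on the X chromosome that are expressed in germ cells, placenta and ES cells. Rhox9 read 10.05 in the ES cells and 7.24, 7.88, 7.54 and 7.68 in lines #4, #7, #7.1 and #7.2 (difference −2.46, SE 0.21, limma adjusted p = 2.2e-04). Rhox6 read 8.54 in the ES cells and 6.35, 6.89, 6.70 and 6.85 in the lines (difference −1.85, SE 0.19, limma adjusted p = 0.001). In both, line #4 was the lowest of the lines, and the MEFs (5.97 and 5.81) were not above background. Rhox5, the founding member of the cluster, named like Rhox12 after its values were seen, read 11.86 in the ES cells and 10.45 to 11.23 in the lines. Its difference of −1.03 (SE 0.26, limma adjusted p = 0.067) was not called, and Rhox12 was not above background in the ES cells (6.31) and read 6.26 to 6.54 in the lines. Rhox6 and Rhox9 therefore made 2 calls among 4 tested members, with a median of −1.44. Both were called in every run that left out 1 line. With lines #4 and #7 alone neither was called, and Rhox9 then had −2.49 with an adjusted p (limma) of 0.075. Near-identical copies in the Rhox cluster could share probes, so the assignment to 1 member is uncertain.

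Of 20 tested germ cell genes, Tuba3a, an alpha-tubulin of the testis, was called lower (−1.22, SE 0.14, limma adjusted p = 0.0016). Of its 4 probes, 3 showed −1.55, −1.43 and −1.40 and the brightest in the lines −0.49. By that probe alone it was not called (limma adjusted p = 0.11). All 4 lines lay below the ES cells in 13 members and above them in 1, beside 26.9% and 29.2% of all genes tested. Some of the 13 lay near background. Prdm1, Nanos3 and Xlr5a were above it in no line, and Stra8 and Asz1 in 1, all named after their values were seen. The median of the list was −0.34, beside 0.01 for all genes tested. Xlr4a, chosen after its values were seen, read 9.47 in the ES cells and 8.54, 8.23, 7.11 and 8.15 in the lines. Its difference of −1.46 was not called (SE 0.41, limma adjusted p = 0.087), with line #7.1 the lowest. Dppa3 (Stella), a maternal and germ cell factor also chosen after its values were seen, showed −0.88 (limma adjusted p = 0.15). Tuba3a has a near-identical neighbour, Tuba3b, and probes could measure both. Tuba3b, named after its values were seen, showed −0.38.

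Fah, the gene mutated in the donor mice, read 8.89 in the ES cells and 7.11, 7.24, 7.11 and 6.99 in lines #4, #7, #7.1 and #7.2, with 6.29 in the MEFs. The ES cells were above all lines, the gene-corrected lines lay at or below the uncorrected ones, and the MEFs were below background. The difference was −1.78 (SE 0.13, limma adjusted p = 1.0e-04), or 3.44-fold lower. Where the 1 Fah probe lies relative to the disrupted allele and to the cDNA of the vector is not known. By quantitative RT-PCR, the paper reports constitutive FAH expression from the vector with the SFFV promoter in a gene-corrected line. Whether the array probe measures RNA from the vector was not tested, so the array signals do not show how much FAH RNA the gene-corrected lines made. Of the 40 tested genes nearest to Fah on chromosome 7, 20 on each side, 1 was called (Ap3b2, −1.04, named after its values were seen), and their median was −0.02. Among 7 tested genes of tyrosine breakdown and hepatic function no other gene was called (median −0.36), with −0.36 for Gstz1, the enzyme just before Fah, named after its values were seen. Hpd, the enzyme inhibited by the drug NTBC and likewise named, was not above background in the ES cells and was above it in 1 line, so it has no measured difference.

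The remaining genes among the 15 with the largest lower calls had varied roles. The uncharacterized 2210409E12Rik read 9.54 in the ES cells and 6.00 to 6.42 in the lines, of which 2 were above background (difference −3.31, SE 0.18). Rpl29, a protein of the large ribosomal subunit, differed by −2.40 and Slc4a3, an anion exchanger, also by −2.40. Nod1, an intracellular sensor of bacterial peptidoglycan, differed by −2.15, with 1 line above background, and H2-Bl, an MHC class I gene, by −2.05, with 2 lines above background. Pclaf, which binds the replication clamp PCNA, differed by −2.01, Dhrs7, a short-chain dehydrogenase, by −1.86 and Ly6e, a GPI-anchored surface protein, by −1.82. Zfp985, a zinc finger gene, read 10.25 in the ES cells, 8.91 in line #4 and 7.57 to 7.76 in the other lines. Its difference of −2.28 (SE 0.42, limma adjusted p = 0.019) was not called without line #7.2 (−2.17, limma adjusted p = 0.067). All 4 lines were below the ES cells in each of these 15 genes.

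The medians of the energy metabolism lists were below 0. None of their genes was called, which is near the 0.913% called over all genes tested. Of 32 tested glycolysis and hypoxia genes none was called, 11 had an unadjusted p under 0.05 in the lower direction and none in the higher, and all 4 lines lay below the ES cells in 20 (median −0.22). Aldoc, an aldolase, showed the largest difference, −0.94 (SE 0.22, limma adjusted p = 0.048), below 2-fold. Pkm (−0.74), the pyruvate kinase gene, and Ddit4 (−0.85), a hypoxia-induced inhibitor of mTORC1, were chosen after their values were seen and also stayed below 2-fold. Of 62 tested subunits of oxidative phosphorylation none was called, 15 had an unadjusted p under 0.05 in the lower direction and 1 in the higher, and all lines lay below the ES cells in 37 (median −0.15). The lowest was Atp5e, a subunit of ATP synthase (−0.71, limma adjusted p = 0.024). Over all genes tested, 1002 had an unadjusted p under 0.05 in the lower direction and 883 in the higher. All 4 lines lay below the ES cells in 26.9% of all genes tested.

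In the glutathione and antioxidant list, Mt2, a metallothionein that binds zinc and copper, was called lower. It read 9.38 in the ES cells and 7.66, 8.16, 8.06 and 7.73 in lines #4, #7, #7.1 and #7.2 (difference −1.47, SE 0.20, limma adjusted p = 0.0042), and the lines did not reach the ES cells. Its neighbour Mt1, named after its values were seen, showed −0.78 (limma adjusted p = 0.0099), below 2-fold. Of 32 tested members 1 was called, and the median was −0.13. All 4 lines lay below the ES cells in 17 and above them in 6, beside 26.9% and 29.2% of all genes tested.

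The fibroblast list had 1 called gene and a median above 0. Cav1, the main protein of caveolae, read 7.03 in the ES cells, 8.27, 8.21, 7.78 and 8.12 in lines #4, #7, #7.1 and #7.2 and 12.51 in the MEFs. It differed by 1.07 (SE 0.18, limma adjusted p = 0.014), the call among 32 tested fibroblast and feeder cell genes. Without line #7.2 the call was lost at 1.06 (limma adjusted p = 0.056). All 4 lines lay above the ES cells in 19 of these genes and below them in 2, beside 29.2% and 26.9% of all genes tested. The median of the list was 0.24. Examples, chosen after their values were seen, were Col5a1 (0.93) and the intermediate filament gene Vim (0.93), neither 2-fold. The summed signal of the whole list, of which 29 of 36 genes on the array were above background in the ES cells and 32 in at least 1 line, was 9348 in the ES cells, 10327 to 11639 in the lines and 142276 in the MEFs. More fibroblasts in a culture and more of these RNAs per cell cannot be told apart. The part of fibroblast RNA in other differences was not tested. Of the genes called higher and named by the rule given below, Csrp1, Abhd16a, Cav1, Cyb5r1 and Calml4 had a signal in the MEFs above that of every line. Outside that rule, both probes of 1700123O20Rik also read higher in the MEFs (8.73 and 10.75) than in any line. In the MEFs, 82.5% of the genes called higher and 73.1% of those called lower were above background, beside 79.5% of all genes tested.

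Zscan4c, which marks the rare 2-cell-like state of ES cell cultures, read 6.72 in the ES cells and 9.26, 7.06, 8.33 and 7.37 in lines #4, #7, #7.1 and #7.2. The lines differed among themselves by more than 4-fold, and the difference of 1.28 (SE 0.64, limma adjusted p = 0.32) was not called. No gene of the 5 tested in that list was called, and the median was 0.27. All 4 lines lay above the ES cells in 4, beside 29.2% of all genes tested. Of 16 tested interferon response genes none was called, and Gbp2, a guanylate-binding GTPase, came closest with 0.98 (SE 0.14, limma adjusted p = 0.0054). Of 27 tested imprinted genes outside the Dlk1-Dio3 cluster none was called, the largest difference being 0.90 for Ndn (SE 0.16, limma adjusted p = 0.019). Of 7 listed genes of that cluster, 3 were on the array and only Dlk1 and Dio3 were tested. Neither of these 2 was called, with −0.24 for Dio3. The other gene on the array was not above background on any of the 5 arrays, and the remaining listed genes had no probe assigned. In all, 722 of 960 genes in 34 lists were tested, and 17 of the 92 called genes were members of a list.

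**Figure D3:**
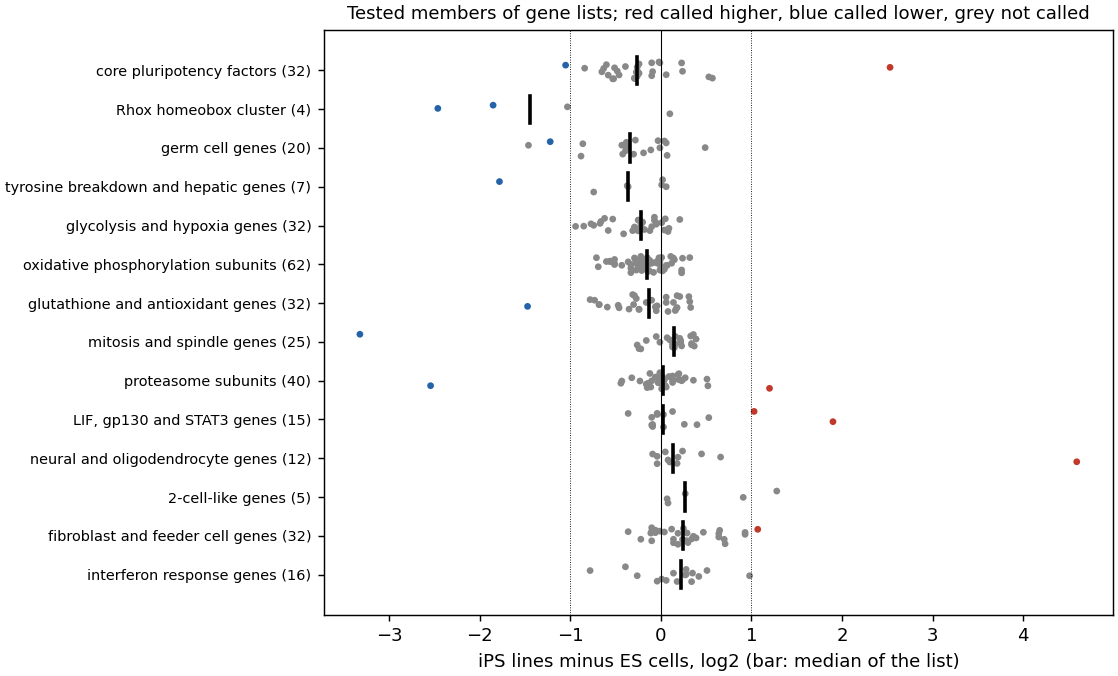
Each point is a tested gene of the list named on the y axis (number of tested genes in brackets), with its difference between the 4 iPS lines and the ES cells in log2 on the x axis. Black bars are list medians, from −1.44 (Rhox) to 0.27 (2-cell-like genes), and dotted lines mark 2-fold. The lists shown are a selection from the 34. Each holds 0 to 2 called genes (red, higher, blue, lower), in most lists away from a body of uncalled ones near 0.

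Each gene was weighed by all of its measuring probes, which showed how far a difference was shared within a gene. Of the genes tested, 7470 had 1 measuring probe and 2606 had several. The share called was 1.00% (75 genes) of the former and 0.652% (17 genes) of the latter. Probe by probe, 145 of 14614 were called (0.992%), 55 higher and 90 lower. Of 42 genes with several probes and at least 1 called, all probes were called in the same direction in 8, the signs of the probes differed in 8, and the gene as a whole was not called in 25. The 8 genes with all probes called were Wdr46, which was higher, and Slc4a3, Dhrs7, Folr1 (a folate receptor), Manba (lysosomal beta-mannosidase), Fez1 (a kinesin adaptor of axons), Glipr2 and Hsd17b11 (a dehydrogenase of lipid droplets), which were lower. The 3 probes of Slc4a3 differed by −2.81, −2.68 and −1.70, the 3 probes of Dhrs7 by −2.29, −1.97 and −1.32, and the 2 probes of Wdr46 by 2.54 and 2.46. Manba, with −1.55 and −1.50, had the closest pair among the lower genes after Hsd17b11, which at −1.01 lay at the threshold and fell below 2-fold without line #7 (−0.98) or line #7.1 (−0.99).

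In other genes the probes disagreed, and these were singled out after their values were seen. One probe of Rpl29 read 11.49 in the ES cells and 7.06 to 7.52 in the lines, a difference of −4.17, while the other, brighter in the lines, read 12.69 and 11.92 to 12.16, a difference of −0.63. By its brightest probe alone Rpl29 would not be called. Zfp330 had a probe at 9.37 in the ES cells that was above background in no line (−3.25), beside one at 0.03. Mak16, a factor of ribosome assembly in yeast, had probes at −2.77 and 0.36. For these 3 genes, all called lower, the call rests on 1 of 2 probes. The same holds for 1700123O20Rik (2.32 and 0.17) and Tor1aip2 (2.05 and 0.36), which were called higher. Tdgf1 (Cripto), a coreceptor of Nodal, had probes at 1.47 and −0.33 and was not called as a gene (0.57). Mbnl1, a splicing regulator, had probes at 1.85 and −0.59 (gene 0.63), and Taf6, a subunit of TFIID, at −1.82 and 0.00 (gene −0.91). The median distance between the lowest and highest probe of a gene was 0.21 over all genes with several probes and 0.36 over those called. For the 75 called genes with 1 measuring probe, which include Olig1, Thumpd1, Trim59, Zfp42, Plk1, Psmd8 and Fah, no second probe was there for comparison.

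**Figure D4:**
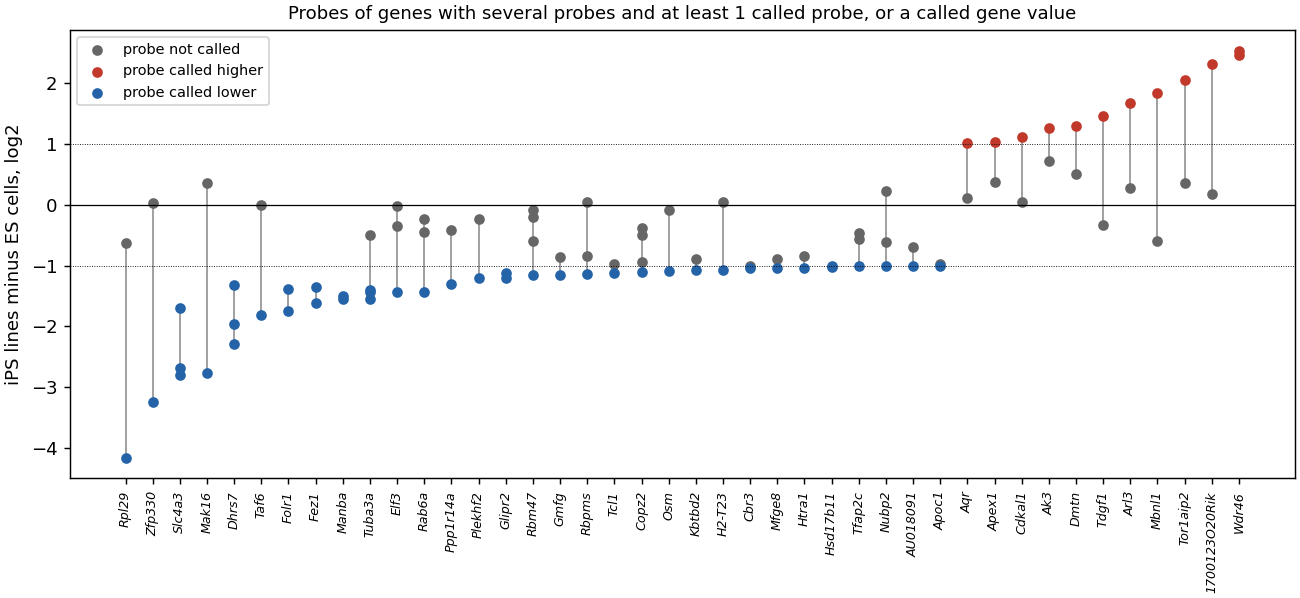
Difference between the 4 iPS lines and the ES cells in log2 (y axis) for each measuring probe of the genes named on the x axis, which have several probes and a called probe or a called gene value. Grey lines join the probes of 1 gene, red and blue points are called probes, and dotted lines mark 2-fold. The probes of Wdr46 lie together, as do those of Manba, and those of Rpl29, Zfp330 and Mak16 far apart.

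Single arrays were also compared in pairs, with no test. Each iPS line had more genes at least 2-fold apart from the ES cells than from any other line. Against the ES cells the number was 137 for line #4, 146 for line #7, 109 for line #7.1 and 127 for line #7.2, or 1.20% to 1.61% of the genes above background. Line #4, the separate derivation, was 31 to 35 genes apart from the other 3 lines. Lines #7, #7.1 and #7.2 were 1 to 8 genes apart from each other. The ES cells were thus farther from each line than the lines of separate derivation were from one another. Whether a second ES cell array would lie closer could not be measured.

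**Figure D5:**
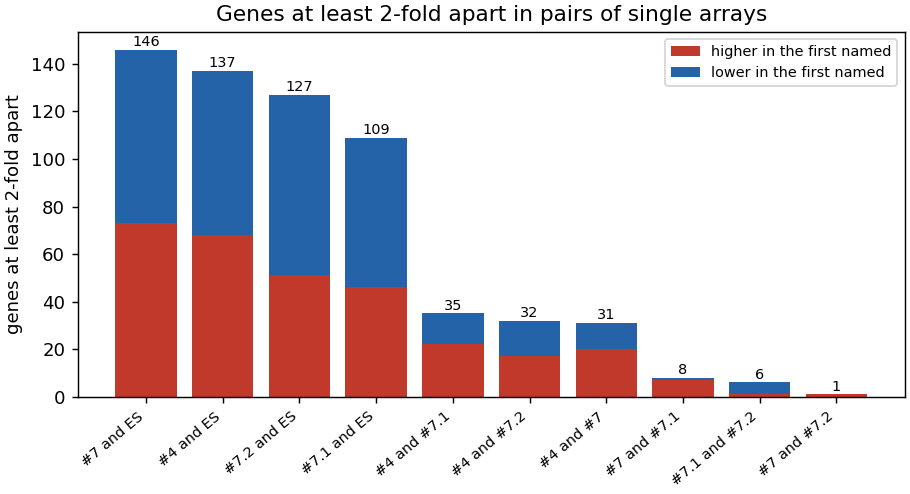
Number of genes at least 2-fold apart (y axis) in each pair of single arrays (x axis), split into genes higher (red) and lower (blue) in the first array named. The 4 pairs with the ES cells have 109 to 146 such genes, the 3 pairs of line #4 with other lines 31 to 35, and the 3 pairs within the line #7 derivation 1 to 8.

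By position, the called genes were spread over most chromosomes, beside 0.913% called over all genes tested. Chromosome 7 held 2 genes called higher and 10 lower among 823 tested (1.46%), Plk1, Psmd8, Folr1 and Fah among the latter. Chromosome 1 held 8 higher and 3 lower among 500 (2.20%), and chromosomes 14 and 17 each 5 higher, with 1 and 2 lower. The X chromosome held 3 lower and none higher among 343 (0.875%), and chromosomes 10 and 18 none of 476 and 227. Of the 92 called genes, 20 lay within 10 tested genes of another called gene, in 9 groups. How many of all genes tested lie so near a called gene was not counted, so no clustering is read from this. One group on chromosome 14 held Mmp14, Psmb5 and 1700123O20Rik, all higher, the last by 1 of its 2 probes (2.32 and 0.17). Rhox6 and Rhox9 lay next to each other among the tested genes of the X chromosome. On chromosome 1, Gbx2 and Cops8 were neighbours among the tested genes with opposite calls. The groups were named after their values were seen, and only the order of genes in the RefSeq table was used for them.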

How the data were processed

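RNA from 6 cultures, 1 Illumina mouse-8 V2 BeadChip each, was linearly amplified and labeled by the authors. The deposited files of each sample hold the signal intensity per probe as exported, and the deposited series table holds intensities that the authors had background-subtracted and normalized by cubic splines with BeadStudio (version not stated in the sources used). Of 25697 probes, 23978 name 1 gene. A RefSeq table (GRCm38.p6), which gave names, chromosomes and gene order, covered 23962 of them.

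Exported intensities were corrected by normexp with an offset of 50, then quantile normalized across the 6 arrays and converted to log2 in R 4.3.3 with limma 3.58.1. A probe was above background where its signal exceeded the array's background by 2.33 noise SDs. The background was the exported signal at which the authors' value is 0, and the noise SD came from the probes below it (5.27 to 6.75 on the 5 arrays). The number of arrays limits the precision. A gene's value was the mean over its probes above background on at least 1 of the 5 arrays. The 16 Y-linked probes were left out. Where no array of a group was above background, each of its arrays was given the higher of the gene's own signal and the lowest normalized signal of a probe above background, and the fold is a lower bound ("at least"). Groups were fitted in limma with 3 residual degrees of freedom, and p-values were adjusted over all genes tested. The steps were tested on simulated data in which every array, the ES array included, varied like the lines. That test therefore cannot say whether the ES array does so. Alternatives changed the background correction, scaling, filter, probe summary, fold threshold, variance model and the lines used, including a fit with the line #7 derivation averaged into 1 unit.

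Genes were named by rule: the 15 largest called differences in each direction, up to 3 called members per list and direction or the tested member with the largest difference, Pou5f1, Nanog, Sox2, Klf4, Myc and Fah, and genes whose probes were all called. This gave 68 genes. Others are marked as named after their values were seen, or are cell type markers. Members and lists were chosen with earlier results of these data known.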

Additional observations from a re-analysis of the deposited data

Results flagged for a closer look

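Among the 68 named genes, 3 had 1 line whose distance to the nearest other line took up most of the range of the 4 lines, by Dixon's criterion. Chance alone flags about 1 in 20 such groups of independent values. As 3 of the 4 lines share a derivation, that rate need not hold here. Ly6e read 8.21 in line #7.2 against 8.36 to 8.38 in the other lines (gap over range 0.880), and 10.15 in the ES cells. Psmb5 read 10.32 in line #7.2 against 10.55 to 10.59 in the others (0.830), with 9.31 in the ES cells. Zfp985 read 8.91 in line #4 against 7.57 to 7.76 in the others (0.856), with 10.25 in the ES cells. In Ly6e the distances between lines were small beside the difference from the ES cells, and Psmb5 was called whichever line was left out. In Zfp985 line #4 lay about midway between the other lines and the ES cells.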

How the results depend on the processing

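Of the 92 calls, 51 (21 higher, 30 lower) were kept under all of 13 settings, which leave out each line or change the background correction, scaling, probe summary, filter of undetected probes or variance model. These do not include the fold thresholds, the values raised to the background limit, the filter on all 5 arrays, the agreement of every probe or the fits with fewer units. Under every setting other than the fold thresholds, 15 were kept. With the line #7 derivation averaged into 1 unit beside line #4, 84 genes were called, of which 79 were among the 92. Of the named genes, this fit lost Gbx2, Hsd17b11, Socs3, Tcl1 and Zfp985. The fit without background correction lost Cav1, Gbx2, Hsd17b11, Pou3f1 and Tcl1. Leaving out 1 line gave 79 to 108 calls, 33 to 47 higher and 45 to 61 lower. With the authors' values, raised to the background limit where below it, 228 genes were called (85 higher, 143 lower), of which 63 were among the 92 (Folr1, Manba, Mt2, Rhox6 and Sp5 were lost among others), and a normexp offset of 16 gave 63 higher. A threshold of 1.5-fold gave 356 (156 higher, 200 lower) and one of 3-fold 35 (15 and 20). Lines #4 and #7 alone gave 25 (13 and 12), with fewer arrays in the fit. At 1.5-fold, the median number of genes apart was 651.5 for the ES cells and a line (132 at 2-fold) and 171 for 2 lines (19.5 at 2-fold). With median scaling the differences of Klf4, Pou5f1 and Sox2 turned to 0.05, 0.05 and 0.13, and those of Klf4 and Sox2 to 0.00 and 0.01 without line #4 (ranges on leaving out each line, −0.20 to 0.00 and −0.05 to 0.01). The cause of these changes was not tested. No paired analysis was possible because only the lines have more than 1 array. Genes near background have compressed differences at this offset, and 2082 of the genes tested had only a bound on 1 side.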
